A study of Rattus norvegicus and Mus musculus with 3 samples.

Results

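The genes described here are 9 transcripts by which inhibitory interneurons are commonly recognised: Gad1, Gad2, Slc32a1, Pvalb, Calb2, Lhx6, Lamp5, Reln and Ndnf. They were chosen by name, ignoring letter case, and all 9 were found among the 30438 genes of each rat table and the 34714 genes of the mouse table. All 9 also had a mean of at least 1 unit over the rats, the minimum used for a gene to be called measured. Total hippocampal RNA was sequenced in 3 libraries, 1 per group. The wild-type mouse library comes from the 3xTg-AD line, an Alzheimer's disease model, has the genotype label WT and an age of 6 months. The Sham and 2VO libraries come from rats labelled WT at 3 to 4 months of age; 2VO commonly stands for tying off both common carotid arteries, and Sham for the operation without that step. Strain, sex, the time since surgery and pooling of animals, if any, are not stated in the labels.

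Interneurons are the local neurons that release GABA, the main inhibitory transmitter of the adult brain. Glutamate decarboxylases make GABA, and a vesicular transporter loads it into synaptic vesicles, so the genes for these proteins mark nearly all interneurons. Subclasses are told apart by calcium-binding proteins, peptides and transcription factors: parvalbumin marks fast-spiking basket and chandelier cells, calretinin marks cells that often contact other interneurons, and neurogliaform cells of the dendritic layers carry markers such as Lamp5, Ndnf and Reln. Several of these genes are not confined to interneurons, since Lamp5 is also transcribed in cortical excitatory neurons, and Reln and Calb2 in Cajal-Retzius cells.

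Values are the authors' normalized expression per gene, on a scale that neither labels nor headers name, and they are called units below. They summed to 325636 in Sham, 333941 in 2VO and 268889 in the mouse, and sequencing depth is unknown. A single library per group leaves no replicate spread, no test was run, and each difference describes 2 libraries rather than their conditions. In such bulk tissue, fewer cells of a type and less RNA per cell cannot be told apart. Genes of excitatory hippocampal neurons were high in all 3 libraries, with Slc17a7, the vesicular glutamate transporter of forebrain excitatory neurons, at 715 units in Sham, 682 in 2VO and 433 in the mouse.

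Of the 9 interneuron genes, 8 were higher in the 2VO library than in Sham and 1, Pvalb, was level to slightly lower. Lamp5 and Calb2 stood furthest apart, while the 3 genes of GABA synthesis and vesicle loading had ratios of 1.07 to 1.25. On the log2 scale with 1 unit added, where differences between low values come out too small, the ratio of 2VO to Sham had a median of 0.32 over the 9 genes and ranged from -0.019 to 1.10. Over all 13550 measured genes the median was 0.039, the SD was 0.24, and 58.7% were higher in 2VO. At least a 1.5-fold difference on this scale was reached by 2 of the 9 genes, both higher in 2VO, beside 1.51% of all measured genes that were as much higher; 0 of the 9 were as much lower, beside 0.967%. Scaling the libraries to equal upper quartiles changed these background shares to 1.15% higher and 1.22% lower, and left 2 and 0 of the 9 genes. At 2-fold Lamp5 alone was higher, 1 of 9 beside 0.244%. Without Lamp5 and Calb2 the median of the other 7 genes was 0.24.

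**Figure D1:**
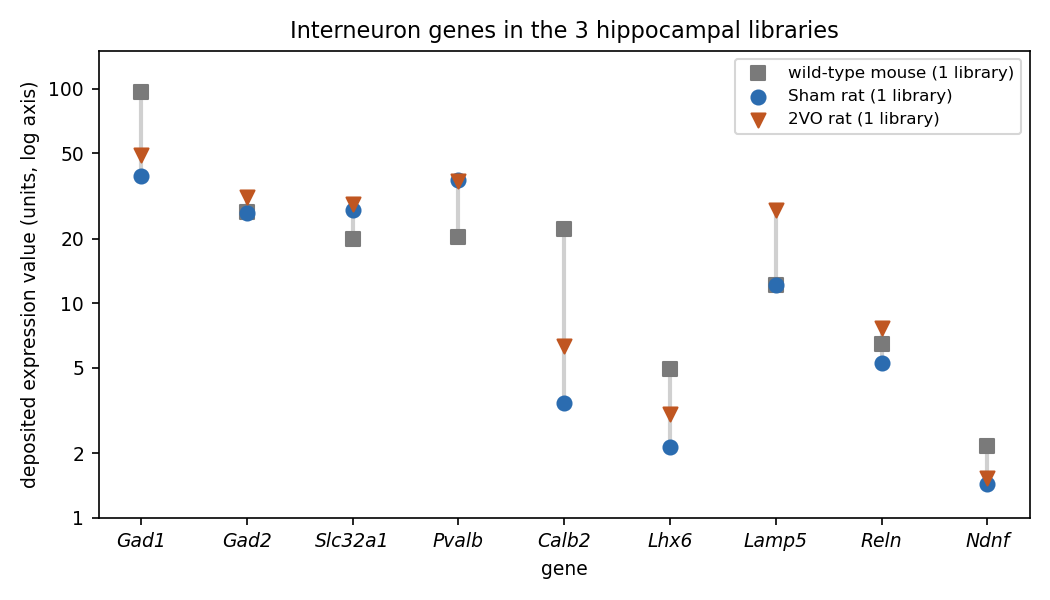
Deposited expression value in units, on a log axis, of each of the 9 interneuron genes, with 1 point for each library and a grey line over their range. Calb2 spans the widest range, from 3.44 in Sham to 22.2 in the mouse, and Lamp5 is the gene at which 2VO, at 27.3, lies apart from both other libraries.

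**Figure D2:**
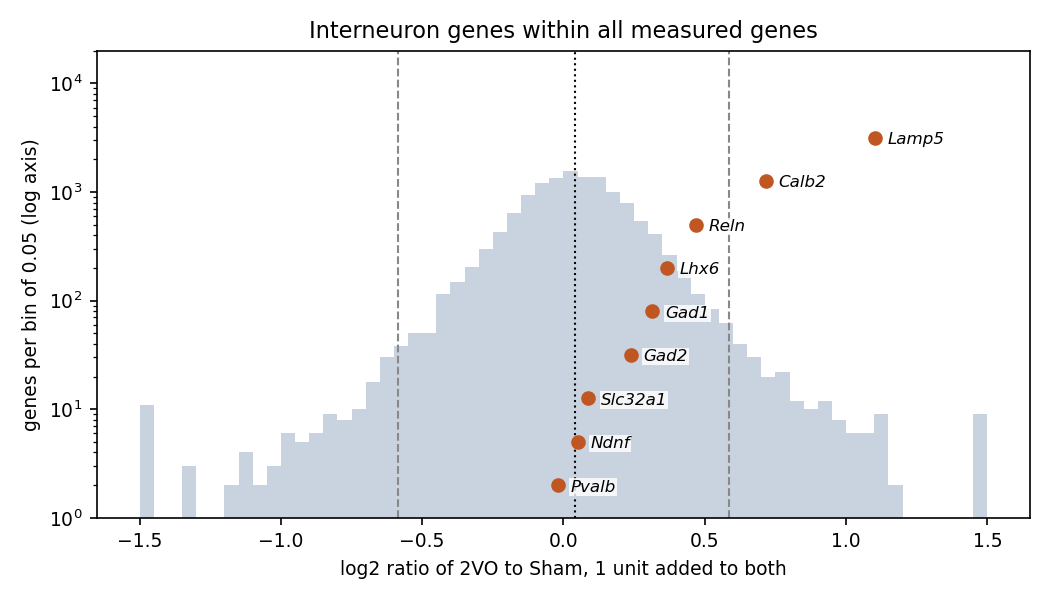
Distribution of the log2 ratio of 2VO to Sham over the 13550 measured genes (grey; genes per bin on a log axis, with genes beyond 1.5 in either direction gathered in the end bins), with the interneuron genes as points placed by ratio at arbitrary heights. The dotted line is the median of all genes and the dashed lines mark 1.5-fold; Lamp5 and Calb2 lie past the upper one.

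Gad1 encodes the glutamate decarboxylase that supplies most cellular GABA. It was 39.2 units in Sham, 49.1 in 2VO and 96.3 in the mouse. The mouse value was thus the highest, and 2VO was 1.25 times Sham, a log2 ratio of 0.32; 13.4% of measured genes lay at least as far apart in either direction. Gad2 encodes the other decarboxylase, concentrated at nerve terminals, and was 26.2 units in Sham, 31.2 in 2VO and 26.6 in the mouse. The mouse and Sham values were nearly equal, and 2VO was 1.19 times Sham, with 22.9% of genes at least as far apart. Slc32a1 encodes the vesicular GABA transporter and was 27.3 units in Sham, 29.1 in 2VO and 19.96 in the mouse. Here the mouse was lowest and the rats lay close together, 2VO being 1.07 times Sham. The geometric mean of these 3 genes was 30.4 units in Sham and 35.4 in 2VO, a ratio of 1.16.

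The calcium-binding proteins went separate ways. Pvalb, which encodes parvalbumin, was 37.6 units in Sham, 37.05 in 2VO and 20.3 in the mouse. The rats were almost identical for this gene, with a ratio of 0.986, and 91.3% of measured genes lay further apart or as far. Calb2, which encodes calretinin, was 3.44 units in Sham, 6.29 in 2VO and 22.2 in the mouse. It was therefore lowest in Sham, 1.83 times higher in 2VO, and several times higher again in the mouse. Its log2 ratio of 0.72 was reached or passed, in the upward direction, by 0.827% of measured genes.

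Lhx6, a LIM-homeodomain transcription factor of interneurons born in the medial ganglionic eminence, was 2.13 units in Sham, 3.03 in 2VO and 4.92 in the mouse. Sham was again the lowest library, and 2VO was 1.42 times Sham. The log2 ratio was 0.36 because 1 unit weighs heavily at so low a level. An uncharacterised long non-coding gene overlaps Lhx6 in the rat RefSeq table, and 3 entries overlap Reln. Whether counting used strand is not given, and the library kit named in the labels does not mark it, so reads of overlapping genes cannot be told apart.

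The genes linked to neurogliaform cells and superficial layers included the furthest apart of the 9. Lamp5, a brain-specific member of the lysosome-associated membrane protein family, was 12.2 units in Sham, 27.3 in 2VO and 12.1 in the mouse. The mouse and Sham libraries were level, and 2VO alone was higher, at 2.24 times Sham. A log2 ratio as high as its 1.10 was seen for 0.133% of measured genes. Reln encodes reelin, a secreted glycoprotein that guides neuronal positioning in development and acts at synapses in the adult. It was 5.26 units in Sham, 7.67 in 2VO and 6.43 in the mouse, a ratio of 1.46 between the rats and a log2 ratio of 0.47, with 4.58% of genes at least as far apart. Ndnf, which encodes a secreted neurotrophic factor, was 1.44 units in Sham, 1.53 in 2VO and 2.17 in the mouse. Ndnf thus did not share the distance that Lamp5 and Reln showed between the rats, its ratio being 1.06.

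The promoter of Lamp5 is shown with those of Gad1 and Reln, because Lamp5 had the largest rat difference of the 9 genes and its promoter differed from theirs in base composition. RefSeq's promoter table for the rat assembly GRCr8 held 7 of the 9 genes by symbol (Gad1, Gad2, Slc32a1, Pvalb, Lhx6, Lamp5 and Reln), and the 250 bases before each annotated start were searched on both strands for the homeodomain core TAATTA, the cyclic AMP response element TGACGTCA, the TATA box TATAAA, the CCAAT box CCAAT and the GC box GGGCGG. Capitals mark matches on either strand, none of which overlap another motif. The lines give Lamp5 at chr3:143824947-143825196, plus strand, Gad1 at chr3:75777202-75777451, plus strand, and Reln at chr4:13628318-13628567, plus strand, each 5′ to 3′.
Lamp5: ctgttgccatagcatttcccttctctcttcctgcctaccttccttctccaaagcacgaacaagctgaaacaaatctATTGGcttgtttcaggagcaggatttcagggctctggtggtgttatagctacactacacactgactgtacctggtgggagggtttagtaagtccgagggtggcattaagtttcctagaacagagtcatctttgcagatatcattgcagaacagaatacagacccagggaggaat
Gad1: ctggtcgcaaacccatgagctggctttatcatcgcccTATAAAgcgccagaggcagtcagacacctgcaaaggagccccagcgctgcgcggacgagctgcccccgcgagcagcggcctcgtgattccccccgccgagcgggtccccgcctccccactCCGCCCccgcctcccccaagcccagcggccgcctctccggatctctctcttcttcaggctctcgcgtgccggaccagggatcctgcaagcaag
Reln: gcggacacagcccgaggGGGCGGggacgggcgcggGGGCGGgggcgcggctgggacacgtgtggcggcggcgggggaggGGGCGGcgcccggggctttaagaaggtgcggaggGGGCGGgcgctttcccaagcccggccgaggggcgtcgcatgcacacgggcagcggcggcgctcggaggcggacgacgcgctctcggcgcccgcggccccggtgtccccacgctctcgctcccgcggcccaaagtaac
The Lamp5 stretch had 46.4% G or C and 2 CpG dinucleotides, against 68.4% and 23 for Gad1 and 80% and 41 for Reln. The other 4 promoters lay between 62.0% and 73.6%, and all 33469 promoters in the table had a median of 51.2%. GC boxes were found in 5 of the 7 promoters, with 4 copies in Reln and 0 in Lamp5, beside 30.5% of all promoters. CCAAT boxes were found in Lamp5, Gad2 and Slc32a1, 3 of 7, beside 34.0% of all promoters. The letters TATAAA were found in Gad1 only, at position -213 counted from the start, beside 12.9% of all promoters with a match anywhere in the window. Neither the homeodomain core, in 4.86% of all promoters, nor the cyclic AMP response element, in 1.59%, occurred in these 7 windows. These matches describe the letters of the windows.

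Dividing each gene by the geometric mean of Gad1, Gad2 and Slc32a1 in the same library gives a value that does not depend on how the libraries were scaled. No unit was added before the log here, so these log2 differences are not on the scale of the log2 ratios above. On this footing Lamp5 stood at 0.400 in Sham against 0.771 in 2VO, a log2 difference of 0.95. Calb2 stood at 0.113 against 0.178, a log2 difference of 0.65. Pvalb lay on the other side, at 1.24 in Sham against 1.05 in 2VO, a log2 difference of -0.24. The GABA genes themselves differed from their own mean, by log2 differences of -0.13 for Slc32a1, 0.027 for Gad2 and 0.10 for Gad1, and that of Ndnf, at -0.13, was about as large as that of Slc32a1. Reln, at 0.173 and 0.217, and Lhx6, at 0.0701 and 0.0856, were higher relative to these genes. The ratio of Gad1 to Gad2 was 1.495 in Sham and 1.57 in 2VO.

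**Figure D3:**
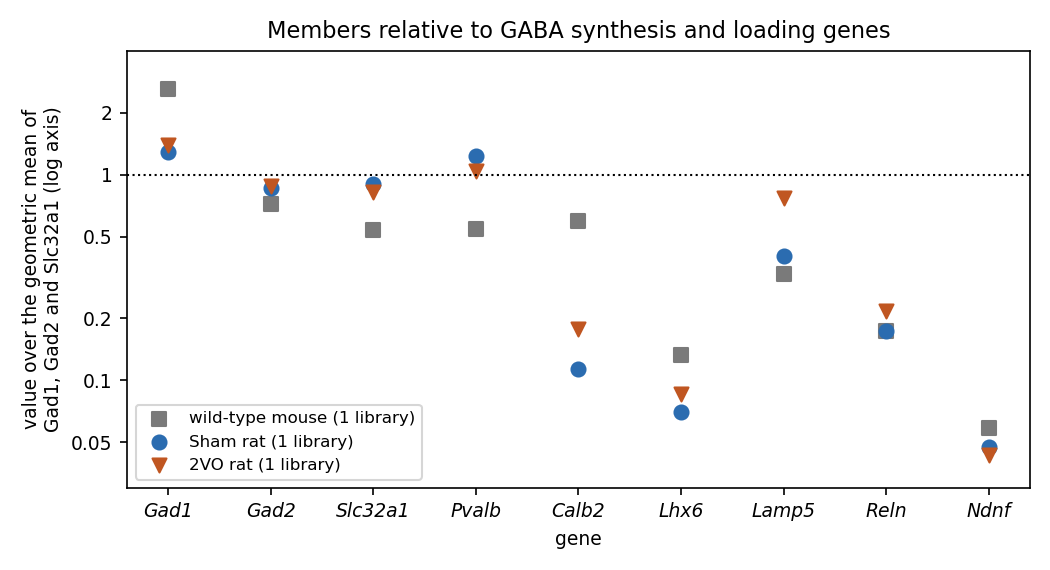
Value of each gene divided by the geometric mean of Gad1, Gad2 and Slc32a1 in the same library, on a log axis, with 1 point per library and a dotted line at 1. Lamp5 is at 0.400 in Sham and 0.771 in 2VO, and Pvalb at 1.24 and 1.05, with the mouse at 0.546 for Pvalb.

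Genes shared by all neurons were also higher in 2VO. Of 12 pan-neuronal genes 10 were higher, with a median log2 ratio of 0.24 and a geometric mean 1.20 times that of Sham. Tubb3, a neuronal tubulin, was 107 units in Sham and 153 in 2VO, and Map2, a dendritic microtubule protein, was 131 and 118. With 2VO scaled so that these 12 genes matched, 5 of the 9 interneuron genes were higher in 2VO and 4 lower. Their median log2 ratio was 0.057, while the median of all genes shifted from 0.039 to -0.19, so theirs stayed above it. The share of all genes higher by any amount under this scaling is not given here. Past 1.5-fold, 0.553% of all genes were higher and 3.33% lower under it. Lamp5 then stood at 0.85, Calb2 at 0.49, Reln at 0.24, Lhx6 at 0.17 and Gad1 at 0.057. Gad2 at -0.015, Ndnf at -0.10, Slc32a1 at -0.17 and Pvalb at -0.28 were on the lower side. Excitatory neuron genes differed from the pan-neuronal ones, with 4 of 8 higher and a median of 0.0042 on the values as deposited. Neurod2, a factor of excitatory neurons, was lowest in ratio at 76.3 units in Sham and 57.1 in 2VO.

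**Figure D4:**
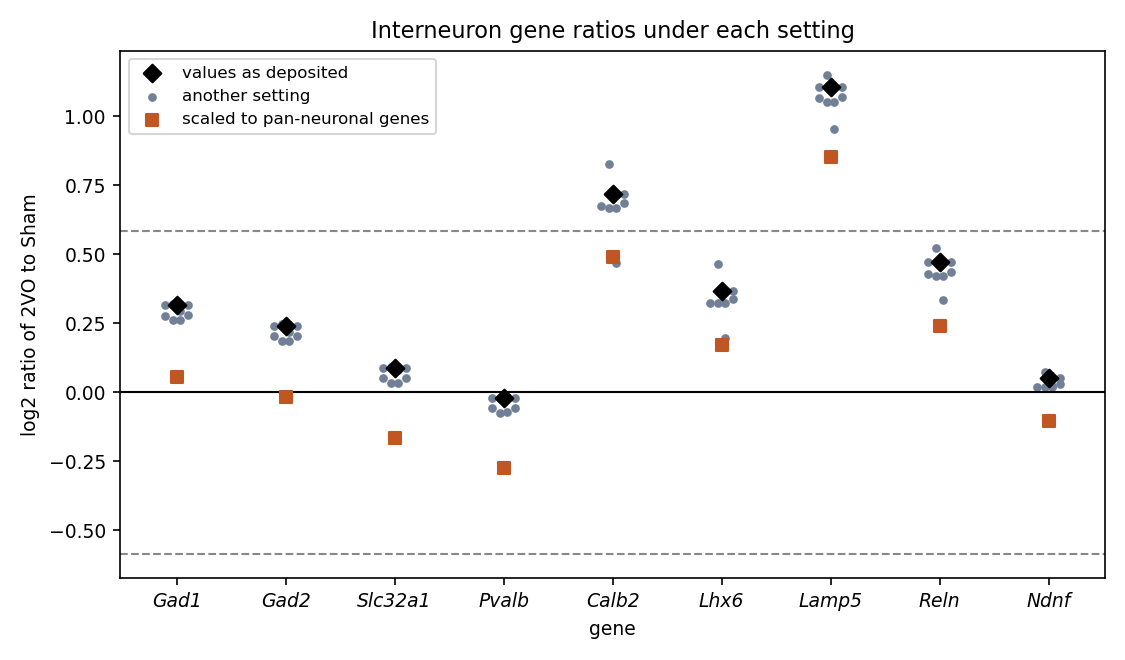
Log2 ratio of 2VO to Sham for each gene with the values as deposited (diamonds), after scaling to the 12 pan-neuronal genes (squares) and under the other settings tried (dots), with dashed lines at 1.5-fold. Lamp5 lies above 1.5-fold throughout, and Gad2, Slc32a1 and Ndnf cross 0 under pan-neuronal scaling.

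The remaining genes of GABA handling were close together in the rats. Of 12 measured members 9 were higher in 2VO and 3 lower, with a median of 0.14 and 0 past 1.5-fold. Gphn, which encodes the scaffold of inhibitory synapses, was 17.4 units in Sham and 20.5 in 2VO. Slc6a13, a GABA transporter of the meninges and barrier cells, was lowest in ratio at 1.16 and 0.841. Slc12a5, the chloride exporter that makes GABA hyperpolarizing, was 131 and 111.

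Among interneuron transcription factors 10 of 13 measured genes were higher in 2VO and 3 lower, with a median of 0.23. Nr2f2, a nuclear receptor of interneurons born in the caudal ganglionic eminence and also of vascular cells, was 1.83 units in Sham and 4.43 in 2VO. It was the 1 gene past 1.5-fold on the scale with 1 unit added. Dlx2 and Dlx5, homeobox factors of the whole GABAergic lineage, were just short of it there, at log2 ratios of 0.55 and 0.54. Dlx2 was 1.06 units in Sham and 2.02 in 2VO, and Dlx5 was 1.18 and 2.17. At such low levels the added unit weighs heavily. Without it the ratios of 2VO to Sham were 1.91 for Dlx2, 1.83 for Dlx5 and 1.52 for Dlx6, the last at 0.834 and 1.27 units. The share of all genes past 1.5-fold without the added unit is not given here. With 0.25 units added it was 2.52% higher and 1.59% lower, beside 1.51% and 0.967% with 1 unit. Satb1, active in Lhx6 cells, was 13.1 and 18.9. Npas1 was the lowest in ratio, at 12.05 and 8.55.

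Interneuron subclass markers were divided at their extremes. Of 19 measured genes 15 were higher in 2VO and 4 lower, with a median of 0.15. Sncg, which marks a set of cholecystokinin basket cells, was 3.26 units in Sham and 24.4 in 2VO. Cck, which is also in the excitatory neuron list, was 137 and 141, and Cnr1 was 32.6 and 36.9. Neither shared the ratio of Sncg. Syt2, the calcium sensor of parvalbumin cell terminals, was 2.43 units in Sham and 4.68 in 2VO. Cort, a peptide gene related to somatostatin, was the 1 gene at least 1.5-fold lower, at 11.99 and 4.74. Sst, which encodes somatostatin, was 96.6 and 86.7. Kcnc2, a fast potassium channel of parvalbumin cells, was 14.3 and 19.7, so Pvalb, Syt2 and Kcnc2 did not share one ratio.

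Perineuronal net genes, which encode the matrix that wraps parvalbumin cells, were 4 of 6 higher with a median of 0.098 and 0 past 1.5-fold. Acan, at 0.871 units in Sham and 1.01 in 2VO, and Has3, at 0.177 and 0.263, were below the minimum and are not among these 6. Vcan was 3.04 units in Sham and 3.76 in 2VO, and Bcan was 129 and 112. Reelin receptors and signalling genes were 4 of 7 higher with a median of 0.10. Vldlr, a reelin receptor, was 15.6 and 14.8, and Lrp8, the other receptor, was 13.24 and 13.21. Dab1, the adaptor that the receptors engage, was 14.5 and 15.9, and Itga3 was 3.49 and 4.72. The receptors thus lay closer together than Reln itself.

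Some markers of other cells were higher in 2VO as well. In the neighbouring cortex and subiculum list 6 of 9 genes were higher in 2VO, with a median of 0.29, and 3 were past 1.5-fold in the direction of Lamp5. Fezf2, a factor of deep-layer cortical projection neurons, was 6.62 units in Sham and 12.7 in 2VO, Tshz2 was 3.81 and 8.82, and Rspo1 was 0.373 and 2.01. Tbr1, a factor of cortical excitatory neurons, was 13.04 and 12.52. The summed level of the list was 88.2 in Sham and 99.1 in 2VO. Nts alone, the lowest of the list in ratio, held 53.9 units of that sum in Sham and 50.7 in 2VO. The part of such tissue in the Lamp5 and Calb2 differences was not tested. Ependymal and choroid plexus genes were higher in 6 of 6 measured members, while Kl, at 0.0496 and 0.0369 units, and Kcnj13, at 0.122 and 0.113, were below the minimum and slightly lower in 2VO. The summed level of all 8 was 7.52 in Sham and 16.9 in 2VO, and Ttr, the transthyretin gene of choroid plexus, was 0.434 and 4.75. The ependymal genes Tmem212, at 1.31 and 2.72, and Ak7, at 0.826 and 1.76, were also past 1.5-fold.

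Oligodendrocyte genes were higher in 8 of 8 members, with a summed level of 3688 units in Sham and 4607 in 2VO, and Ermn, a late myelin gene, at 32.1 and 51.1. Microglial genes were lower in 7 of 8, with a summed level of 166 and 120; Aif1, C1qa and C1qc were past 1.5-fold lower, and P2ry12, at 5.49 and 8.83, was past it higher. Astrocyte genes were 4 higher and 4 lower, with Gfap, the astrocytic intermediate filament gene, at 778 and 360. Endothelial and mural genes were lower in 5 of 6, with Vwf at 2.30 and 1.72 and Flt1 at 4.57 and 5.13. The part of these cell types in the interneuron gene differences was not tested.

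Of 6 Cajal-Retzius markers 1 was measured in the rats. This was Tp73, the rat name of Trp73, looked up after the values were seen, at 1.22 units in Sham and 1.10 in 2VO. Lhx1 and Lhx5 were listed at 0 in both rats and Ebf2 and Ebf3 at 0 in 2VO, and the 6 genes summed to 1.37 units in Sham and 1.28 in 2VO. Mossy and immature granule cell genes were 3 of 3 higher, with a median of 0.12; Dcx, a marker of young neurons, was 1.99 and 2.66, and Neurod1 was 11.38 and 11.41. Thalamic and striatal genes were 3 of 5 higher, with a median of 0.13; Gbx2, a thalamic factor, was listed at 0 in both rats, Tcf7l2 was 1.43 and 1.75, and Drd1, a striatal dopamine receptor, was 1.41 and 1.16.

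**Figure D5:**
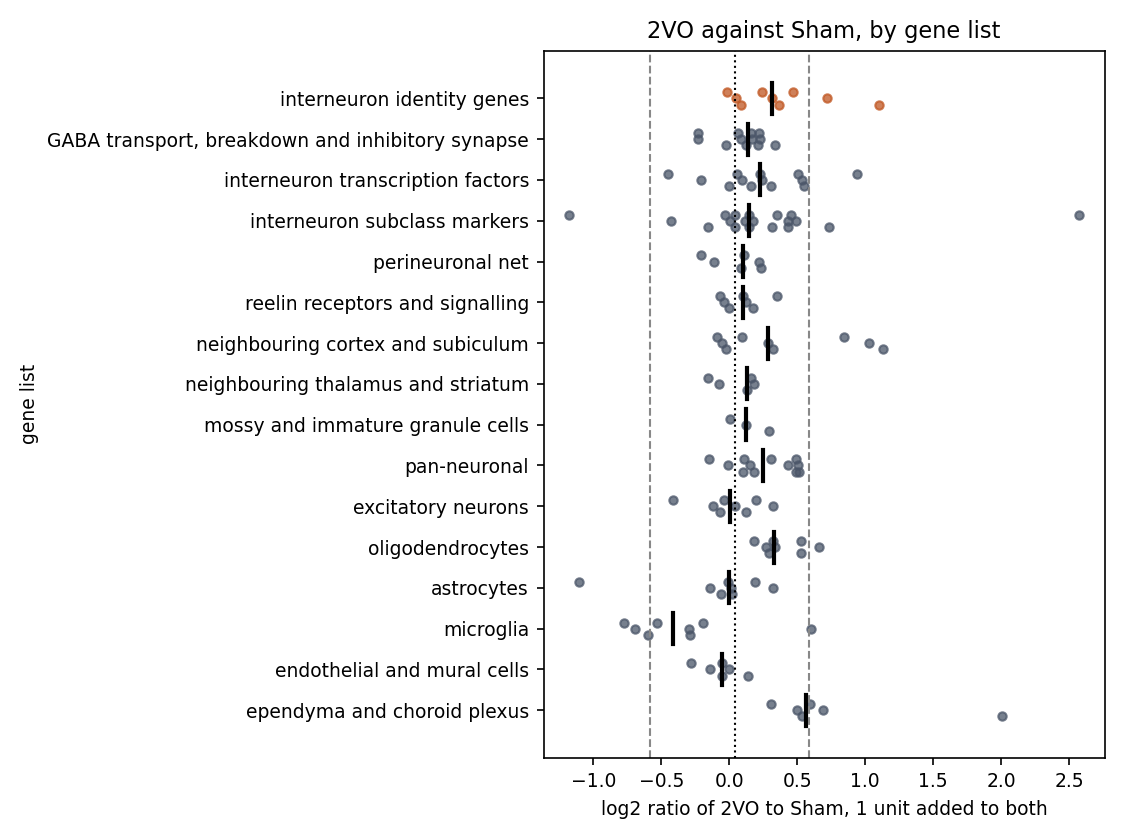
Log2 ratio of 2VO to Sham for each measured gene of the interneuron set (orange) and of the other lists (grey), with a black bar at each list's median, a dotted line at the median of all genes and dashed lines at 1.5-fold. The interneuron genes have a median of 0.32, the pan-neuronal genes 0.24 and the excitatory neuron genes 0.0042. The oligodendrocyte genes, at 0.33, and the ependyma and choroid plexus genes, at 0.56, have higher medians than the interneuron genes.

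The mouse library differs from the rats in species, age and annotation together, so it is set beside them as levels only. Among the 9 genes the mouse was highest for 4 (Gad1, Calb2, Lhx6 and Ndnf), lowest for 3 (Slc32a1, Pvalb and Lamp5) and between the rats for 2 (Gad2 and Reln). Sham was the lowest library for 6 of the 9 and the highest for Pvalb alone. Orders were not counted over all shared symbols, so whether these counts are unusual is not known. Some rest on near ties, as for Lamp5, at 12.1 units in the mouse and 12.2 in Sham. Gad2 was likewise 26.2 in Sham and 26.6 in the mouse. Without replicates, none of these orders can be set against a spread. Over the 11457 shared symbols averaging 1 unit or more, the median log2 ratio of mouse to Sham was -0.13. Against 2VO it was -0.18, and the orders and ratios given here are not adjusted for either offset. Calb2 was the 1 gene at least 2-fold from both rats on the log2 scale, beside 14.0% of 11457 shared symbols, 4.48% higher in the mouse and 9.54% lower; the mouse value was 6.45 times Sham and 3.53 times 2VO. Gad1 came next, at 2.45 times Sham and 1.96 times 2VO. In the other direction, Pvalb in Sham was 1.85 times the mouse value and in 2VO 1.83 times. Calcrl, listed here for hilar mossy cells, which make calretinin in mice, was 1.81 units in Sham, 2.05 in 2VO and 1.62 in the mouse. A single gene at so low a level does not gauge the amount of these cells. Cajal-Retzius genes summed to 1.54 units in the mouse, with Trp73 at 0.803, and the part of either cell type in the Calb2 level was not tested. An antisense transcript of Gad1 listed for the mouse, Gad1os, was at 0.233 units.

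The genes whose levels over the 3 libraries were most like the mean profile of Gad1, Gad2 and Slc32a1 were Dnajc6, Elovl4, Map3k9, Slc25a12 and Sprn. Likeness was the largest difference, in any library, between log2 values centred on each gene's own mean, and Dnajc6, at 51.2 units in Sham, 59.3 in 2VO and 62.6 in the mouse, had a largest difference of 0.0033. With 3 libraries the measure is coarse, since 651 of 8289 candidate genes lay within 0.1 in every library. Gad2, Slc32a1 and Gad1 themselves lay 0.19, 0.44 and 0.62 from their own mean profile, Ndnf and Reln lay 0.14 and 0.18 from it, and Calb2 lay furthest of the 9 genes at 1.23.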

How the data were processed

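Hippocampal RNA of 1 wild-type mouse library, 1 Sham rat library and 1 2VO rat library was extracted with TRIzol, and libraries were made with a TruSeq RNA kit (v2), per the labels' protocols. The builds mRatBN7.2 and GRCm39 and the tools HISAT2 2.1.0, fastp 0.21.0 and DESeq2 come from the submitters' processing notes, which give no roles; for quantifier, annotation and filters nothing is stated. Each deposited table holds 1 normalized expression signal per gene in a unit that is not stated, so depth cannot be had and values carry no counting intervals.

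Groups were taken from the sample titles. The values were compared as deposited: log2 ratios with 1 unit added, over rat genes averaging 1 unit or more, counting genes at least 1.5-fold apart on that scale, and 2-fold between the mouse and both rats over symbols joined by name. No test was run. The interneuron genes, the other lists and the settings were chosen with earlier results of these data known. All 9 interneuron genes are named; of the other lists, genes past 1.5-fold and each list's highest and lowest ratios are named, except some that are not reported here, and others are examples chosen after their values were seen. All 9 genes matched a RefSeq symbol of the rat assembly GRCr8, which differs from the build in the notes, so its coordinates are given for promoters alone. The calculation was tested on simulated data. Python 3.11.15, pandas 2.3.3, numpy 2.4.6, statsmodels 0.14.6 and matplotlib 3.10.9 were used.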

Additional observations from a re-analysis of the deposited data

How the results depend on the processing

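With 1 library per group no setting stands in for a replicate, and the unknown depth limits the low values most, those of Ndnf, Lhx6 and Calb2 in the rats. The median log2 ratio of the 9 genes stayed between 0.22 and 0.32 with 0.25 or 4 units added before the log, without a filter, over the 6 genes averaging 5 units or more, with upper-quartile or median-of-ratios scaling, with equal sums without the 50 most abundant genes and after centring on a lowess trend (span 0.3); it was 0.057 with pan-neuronal scaling. The count of genes at least 1.5-fold higher was 1 in place of 2 with 4 units added and with pan-neuronal scaling, where Calb2 stood at 0.47 and 0.49 on the log2 scale, and 1 over genes averaging 5 units or more, which leaves Calb2 out. The share of all genes as much higher was smaller in these settings too, at 0.517%, 0.553% and 1.05% in that order. The count at least 1.5-fold lower was 0 in every setting, beside 0.369% to 3.33% of all genes, so it says nothing particular about the 9 genes. Lamp5 ranged from 0.85 to 1.15 and Pvalb from -0.28 to -0.018. Between the mouse and both rats, 2 genes in place of 1 were at least 2-fold apart with upper-quartile and with median-of-ratios scaling, Gad1 joining Calb2. The share of all shared symbols as far apart under these scalings is not given here. The change in this count therefore says nothing particular about the 9 genes. No paired analysis was possible because each group holds 1 library.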
